A study of Mus musculus with 3 samples.

Results

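The miR-30 family in extracellular vesicles (EVs) of postnatal day 7 (PND7) mouse testis was represented by 11 miRNA identifiers, out of 805 counted in any of the 3 libraries. They were chosen by name: any mouse miRNA called miR-30 with a letter from a to f, of either arm, counted as a mature or a hairpin entry. Of the 11 identifiers, 5 came from the 5p arm (mmu-miR-30a-5p, mmu-miR-30b-5p, mmu-miR-30c-5p, mmu-miR-30d-5p and mmu-miR-30e-5p, written without the prefix from here on) and 6 from the 3p arm, where miR-30c has a separate name for each of its 2 precursors. All 11 were counted in every library as mature or hairpin, and no member with the letter f was counted.

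Each of the 3 libraries held RNA from EVs pooled from 10 male C57/BL6 mice of postnatal day 7, and the libraries were labelled as biological replicates of 1 condition. The EVs came from the supernatant of whole decapsulated testes digested with Accumax, and they were treated with proteinase K, PMSF and RNase A before the RNA was extracted. Sample titles include the term treated, for which the labels name no further agent. The libraries had between 25716952 and 27939308 clean reads, of which 870967 to 1005836 were counted on mature and 493345 to 612122 on hairpin entries. All cells of the testis could contribute EVs, so fewer EVs from a cell type and less RNA per EV cannot be told apart. Small RNA counts do not offer the usual mRNA markers of cell types. miR-202-5p, a miRNA known for its enrichment in the gonads, had 16196 to 28519 mature counts per library.

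miRNAs are cut from a hairpin by Drosha and Dicer, and either strand of the resulting duplex, the 5p or the 3p arm, can be loaded into an Argonaute protein. Bases 2 to 8 of the loaded strand form the seed that pairs with target mRNAs, so paralogs with the same seed share many targets. The miR-30 family is known for restraining epithelial to mesenchymal transition and fibrosis, and miR-30a for targeting Beclin 1, a regulator of autophagy. The 5p arm is the arm usually described as the guide strand of the family.

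Mature sequences of 7 of the 11 identifiers were found in the RefSeq table for GRCm38.p6 and are shown because the comparison of paralogs and arms rests on how little they differ. The capitals mark the seed, and each sequence reads 5′ to 3′. The identifiers miR-30b-5p, miR-30d-5p, miR-30b-3p and miR-30d-3p are named only.
miR-30a-5p, chr1:23272274-23272295, plus strand: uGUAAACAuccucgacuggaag
miR-30c-5p, chr1:23291714-23291736, plus strand, and chr4:120769584-120769606, minus strand: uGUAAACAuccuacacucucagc
miR-30e-5p, chr4:120772660-120772681, minus strand: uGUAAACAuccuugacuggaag
miR-30a-3p, chr1:23272315-23272336, plus strand: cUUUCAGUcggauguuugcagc
miR-30e-3p, chr4:120772618-120772639, minus strand: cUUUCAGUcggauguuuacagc
miR-30c-1-3p, chr4:120769546-120769567, minus strand: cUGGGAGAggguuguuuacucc
miR-30c-2-3p, chr1:23291754-23291775, plus strand: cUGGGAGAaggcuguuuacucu

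The shown 5p members shared the seed GUAAACA and the first 12 bases. With positions counted from 1 at the 5′ end, miR-30a-5p and miR-30e-5p differed by the single substitution C13U, and miR-30a-3p and miR-30e-3p by G18A. miR-30a-5p and miR-30c-5p differed at 5 of 22 positions, all from base 13 onwards. The 3p arms fell into 2 groups by seed, UUUCAGU for miR-30a-3p and miR-30e-3p and UGGGAGA for both miR-30c names, which differed by G9A, U12C and C22U. Since miR-30a and miR-30e differ by a single base in each arm, the authors' mapping could have split their reads, and their sums are given beside the separate values. The sequences of miR-30b and miR-30d were not compared here. The same doubt therefore holds for reads split between them and the other paralogs.

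The 6 precursor genes lie in 3 pairs in GRCm38 (mm10). Mir30a and Mir30c-2 lie on chromosome 1, 19361 bases apart, with Mir30a outside other annotated genes and Mir30c-2 over an exon of the lincRNA Gm27028. Mir30c-1 and Mir30e lie on chromosome 4, 2983 bases apart, and both sit in an intron of Nfyc on its own strand, the gene of a subunit of the transcription factor NF-Y. Mir30b and Mir30d lie on chromosome 15, at chr15:68337415-68337510 and chr15:68341208-68341289, 3697 bases apart. Mir30b overlaps an exon of the processed transcript Gm26621, and Mir30d overlaps exons of the lincRNA Gm20732 and of Gm37296. Both miR-30c genes encode the same 5p arm, so the counts of miR-30c-5p cannot be divided between them. The precursors Mir30a and Mir30e are shown with their mature arms in capitals, because it is these that had the most 3p counts relative to 5p.
Mir30a, chr1:23272269-23272339, plus strand: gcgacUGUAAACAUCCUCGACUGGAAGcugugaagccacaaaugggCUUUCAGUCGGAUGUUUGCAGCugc
Mir30e, chr4:120772606-120772697, minus strand: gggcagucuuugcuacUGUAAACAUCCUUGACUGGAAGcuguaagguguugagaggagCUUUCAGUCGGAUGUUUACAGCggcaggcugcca

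The 5p members together had 7123, 11174 and 7350 mature counts in replicates 1, 2 and 3. This was 0.818%, 1.11% and 0.761% of the mature miRNA counts, with a mean of 0.896% ± 0.188 (SD, n = 3). The exact binomial 95% confidence interval in replicate 2, from 1.09% to 1.13%, lay above those of the other libraries, so the spread between libraries exceeded counting error. The 3p members had 1504, 1530 and 1261 mature counts, or 0.152% ± 0.0211 of the mature counts (SD, n = 3). Among hairpin entries the 5p members held a larger share, 1.46% ± 0.401 (SD, n = 3), and the 3p members held 0.298% ± 0.0494.

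Among mature entries miR-30b-5p was the most abundant member, with 3068, 4759 and 3043 mature counts in replicates 1, 2 and 3. Scaled to 1000000 mature miRNA counts in each library (counts on this scale are given as CPM), it had 3801 ± 827 (SD, n = 3) and ranked 29th of 604 mature miRNAs. miR-30d-5p, encoded beside it on chromosome 15, had 1620, 3364 and 2119 mature counts, or 2466 ± 779 CPM, and ranked 36th. miR-30c-5p had 2018, 2614 and 1873 mature counts, or 2285 ± 332 CPM, and ranked 40th. These 3 members led the mature entries of the family, and each was highest in replicate 2.

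miR-30a-5p, the member known for targeting Beclin 1, had 372, 396 and 303 mature counts, or 378 ± 58.4 CPM (SD, n = 3), and ranked 112th. miR-30e-5p had 45, 41 and 12 mature counts, or 34.9 ± 20.3 CPM, and ranked 288th. Every library of miR-30e-5p lay below every library of miR-30a-5p, and every library of miR-30a-5p below those of the leading members. In replicate 3 the 12 counts of miR-30e-5p gave 12.4 CPM, with an exact 95% interval from 6.42 to 21.7.

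The 3p arms were ordered differently. miR-30e-3p was the most abundant of them, with 1006, 855 and 916 mature counts, or 984 ± 156 CPM (SD, n = 3), at rank 74. miR-30a-3p followed with 399, 655 and 308 mature counts, or 476 ± 167 CPM, at rank 99. miR-30e-3p was thus above miR-30a-3p in each library, whereas the order of the same paralogs was opposite in the 5p arm. The remaining 3p members had at most 59 mature counts in any library, and miR-30b-3p was counted in replicate 1 only, with 20 counts. In replicates 2 and 3 miR-30b-3p had 0 counts, which allows a level of up to 2.98 and 3.10 CPM (3 counts of the mature total).

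**Figure D1:**
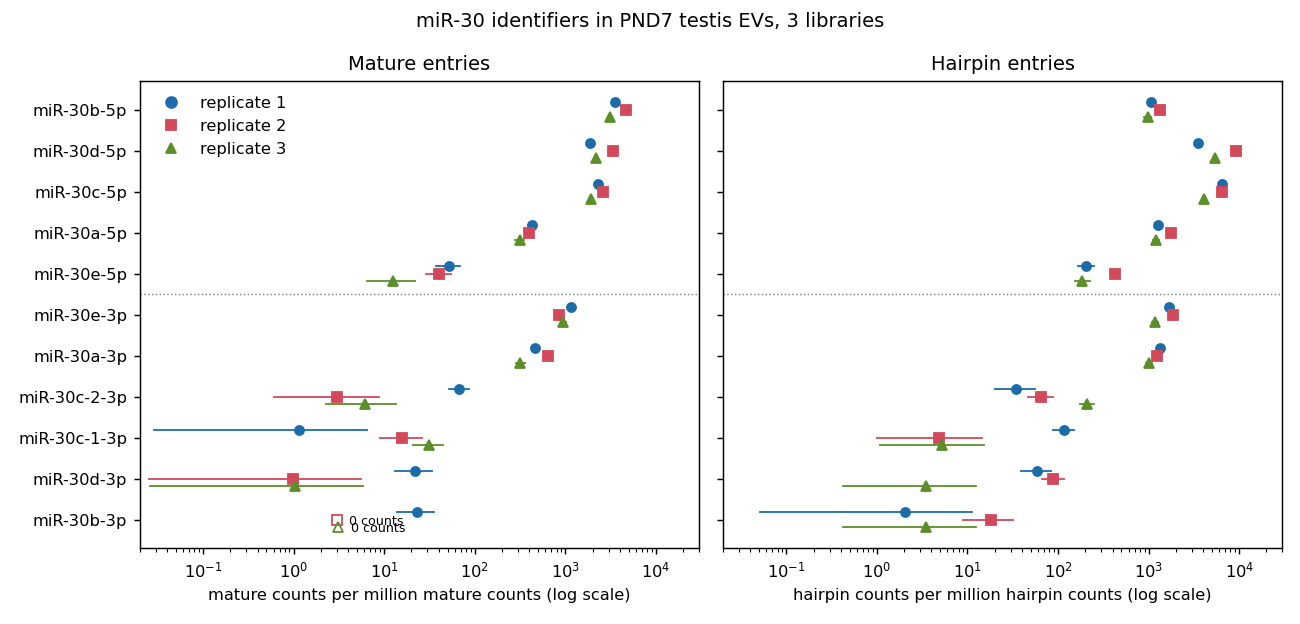
Levels of the 11 miR-30 identifiers as mature entries (left) and hairpin entries (right), in CPM of the entry type (counts scaled to 1000000) on a log scale. Each filled point is a library with its exact 95% binomial interval, which covers counting error only, and open points mark 0 counts, drawn at the level of 3 counts; the dotted line parts 5p from 3p members. The mature level falls from 3801 CPM for miR-30b-5p to 34.9 CPM for miR-30e-5p, while miR-30e-3p reaches 984 CPM.

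The 5p paralogs were compared within each library by their log2 ratio, with an exact two-sided permutation of the signs of the 3 ratios as the test. With 3 libraries this cannot give p below 0.25, and so none of the 10 pairs could pass a threshold of 0.05. For 9 of the 10 pairs the ratio had the same sign in all 3 libraries and a mean larger than its SD (exact test, p = 0.25 and 0.278 after Benjamini-Hochberg adjustment over the 10 pairs). The exception was miR-30c-5p against miR-30d-5p, with a log2 ratio of -0.08 ± 0.35 (SD, n = 3; exact permutation p = 0.75). miR-30c-5p was higher in replicate 1 and miR-30d-5p in replicates 2 and 3, so the order of this pair was not resolved beyond their spread.

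miR-30b-5p exceeded miR-30c-5p by 0.72 ± 0.13 on the log2 scale (SD, n = 3), a 1.65-fold difference. It exceeded miR-30d-5p, encoded on the same chromosome, by 0.65 ± 0.24, a 1.57-fold difference. Both ratios were above 0 in 3 of 3 libraries. miR-30a-5p stood 9.98-fold below miR-30b-5p, with a log2 ratio of -3.32 ± 0.27. It stood 12.6-fold above miR-30e-5p, with a log2 ratio of 3.66 ± 0.87. Of the mature 5p counts, miR-30b-5p held 42.4% ± 0.860, miR-30d-5p 27.2% ± 3.93, miR-30c-5p 25.7% ± 2.48, miR-30a-5p 4.30% ± 0.853 and miR-30e-5p 0.387% ± 0.235 (SD, n = 3 each). The share of miR-30b-5p lay between 41.4% and 43.1% in the 3 libraries, although its level in CPM varied 1.50-fold.

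The order of the paralogs changed with the type of entry. As hairpin, miR-30b-5p had only 523, 813 and 562 counts, against 1748, 5677 and 3143 for miR-30d-5p and 3197, 3910 and 2388 for miR-30c-5p. Scaled to 1000000 hairpin counts, miR-30d-5p had 6087 ± 2919, miR-30c-5p 5668 ± 1328, miR-30a-5p 1427 ± 309, miR-30b-5p 1120 ± 185 and miR-30e-5p 270 ± 131 (SD, n = 3 each). miR-30b-5p, first among mature entries, was thus 4th of the 5 among hairpin entries. The hairpin log2 ratio of miR-30b-5p was -2.32 ± 0.27 to miR-30c-5p and -2.34 ± 0.55 to miR-30d-5p, below 0 in 3 of 3 libraries. In all, 3 of the 10 pairs had opposite mean signs in the mature and hairpin entries, and each of them involved miR-30b-5p. How the mapping divided reads between miR-30b-5p and the other paralogs was not tested. With mature and hairpin counts summed, miR-30d-5p held 33.9% ± 7.55 of the 5p counts, miR-30c-5p 32.5% ± 5.80 and miR-30b-5p 25.5% ± 1.34 (SD, n = 3 each). The hairpin level of miR-30d-5p varied 2.62-fold between libraries, with replicate 2 highest and replicate 1 lowest.

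**Figure D2:**
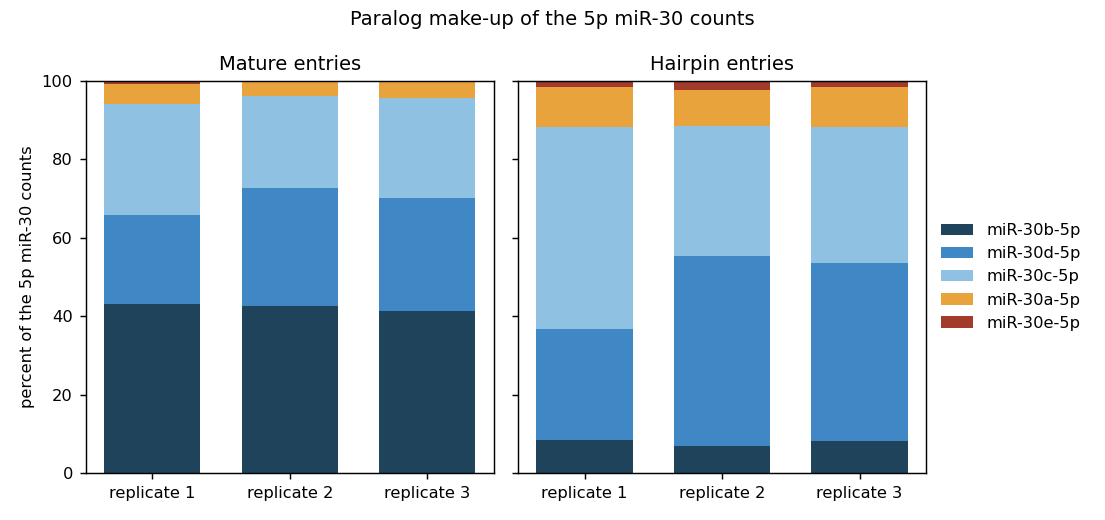
Share of each paralog in the 5p miR-30 counts of each library, for mature entries (left) and hairpin entries (right); each bar sums to 100%. miR-30b-5p holds 42.4% of the mature and 7.83% of the hairpin counts on average, and miR-30c-5p and miR-30d-5p trade places between replicate 1 and the other libraries.

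The balance of mature and hairpin entries was next compared within each identifier. The sources used here do not define the hairpin type, so the share counted as mature is given as a description of the authors' assignment. miR-30b-5p was counted as mature for 85.4%, 85.4% and 84.4% of its reads in replicates 1, 2 and 3. The other 5p members were counted mainly as hairpin in every library. The mature share was 41.9% ± 5.62 for miR-30d-5p, 40.9% ± 2.73 for miR-30c-5p, 31.3% ± 5.30 for miR-30a-5p and 18.2% ± 11.1 for miR-30e-5p (SD, n = 3 each). The mature entry of miR-30b-5p exceeded its hairpin entry 5.71-fold, with a log2 ratio of 2.51 ± 0.07, which was the smallest SD among the 10 identifiers that had both entries in every library. The log2 ratio was -0.48 ± 0.33 for miR-30d-5p, -0.53 ± 0.16 for miR-30c-5p, -1.15 ± 0.35 for miR-30a-5p and -2.33 ± 1.03 for miR-30e-5p. Each of these 5 ratios had the same sign in 3 of 3 libraries (exact sign-flip permutation test, two-sided, p = 0.25, adjusted over the 10 identifiers p = 0.357).

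Among the 3p arms, miR-30a-3p was counted mainly as hairpin in every library, with a mature share of 39.4% ± 6.05 (SD, n = 3). miR-30e-3p was evenly divided, with 54.7%, 43.0% and 57.5% mature in replicates 1, 2 and 3 and a log2 ratio of 0.10 ± 0.45 (exact permutation p = 0.75). The other 3p members had between 1 and 122 hairpin counts in a library. In replicates 1, 2 and 3 there were 17, 40 and 122 for miR-30c-2-3p, 57, 3 and 3 for miR-30c-1-3p, 29, 54 and 2 for miR-30d-3p and 1, 11 and 2 for miR-30b-3p.

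Of all miRNA identifiers with 10 or more mature and hairpin counts together in each library, 35.4% (140 of 395) had more mature than hairpin counts in every library, and 36.7% (145 of 395) had more hairpin counts. Of the 11 members 9 met this minimum. Of these, 1 (miR-30b-5p) had more mature counts in every library and 5 had more hairpin counts. The median mature share was 40.9% over these 9 and 47.1% over the 395 identifiers.

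**Figure D3:**
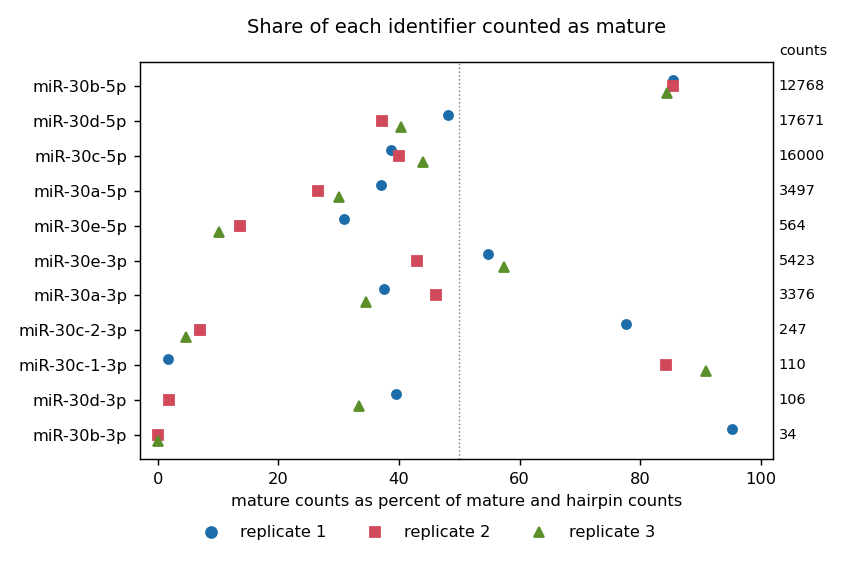
Mature counts as a percent of the mature and hairpin counts of each miR-30 identifier, with a point for each library; the dotted line marks 50%, and the counts summed over libraries and both entries stand at the right. miR-30b-5p lies near 85% in all 3 libraries, the other 5p members lie below 50%, and the points of the miR-30c 3p identifiers lie at opposite ends in replicate 1 and in the other libraries.

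Among reads assigned to a named member, the paralogs differed in which arm was counted. A further 8073, 11526 and 8472 reads in replicates 1, 2 and 3 were assigned only to the Rfam family of the mir-30 precursor. They carry no paralog or arm and are left out of these shares. miR-30e was counted almost entirely from its 3p arm, with 95.7%, 95.4% and 98.7% of its mature counts in replicates 1, 2 and 3. The 3p arm exceeded the 5p arm 22.4-fold, 20.9-fold and 76.3-fold in these libraries, with a log2 ratio of 5p to 3p of -5.04 ± 1.05 (SD, n = 3). The geometric mean was 32.9-fold, and 21.6-fold without replicate 3, in which miR-30e-5p had only 12 counts. miR-30a was nearer balance, with 51.8%, 62.3% and 50.4% of its mature counts on the 3p arm and a log2 ratio of -0.28 ± 0.39, smaller than its SD. In replicates 1 and 3 the exact 95% interval of this share included 50%, whereas in replicate 2 it ran from 59.3% to 65.3%.

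The other paralogs were counted almost entirely from the 5p arm. In miR-30c the 5p arm exceeded the summed 3p arms 62.2-fold, with a log2 ratio of 5.96 ± 1.04 (SD, n = 3). In miR-30d the ratio was 85.3 in replicate 1. In replicates 2 and 3 a single 3p count gave 3364 with a counting interval from 603 to 132910, and 2119 with an interval from 380 to 83735. In miR-30b the ratio was 153 in replicate 1, with a counting interval from 99.1 to 251. In replicates 2 and 3 its 3p arm had 0 counts, and the counting interval gave lower limits of 1290 and 824. Set against 3 counts in that library, its 5p arm was 1586-fold and 1014-fold higher.

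For miR-30a, miR-30c, miR-30d and miR-30e, the exact sign-flip permutation test gave p = 0.25 each, two-sided, the smallest that 3 libraries allow, and 0.25 after adjustment over these 4. Over the 112 stems, from all mature miRNAs, with both arms listed and 10 or more counts of the pair in each library, 5p was above 3p in every library for 48.2% (54), and 3p above 5p for 30.4% (34). miR-30b and miR-30d were among the former, and miR-30a and miR-30e among the latter.

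With miR-30a and miR-30e added together, so that the division of reads between this pair does not enter, the 3p arms were also above the 5p arms. The 5p arms had 417, 437 and 315 mature counts and the 3p arms 1405, 1510 and 1224. The 3p arms exceeded the 5p arms 3.37-fold, 3.46-fold and 3.89-fold, with a log2 ratio of 5p to 3p of -1.83 ± 0.11 (SD, n = 3). This sum still depends on the division of reads between the pair and other paralogs, among them miR-30d. With miR-30d added as well, the 5p arms had 2037, 3801 and 2434 mature counts and the 3p arms 1424, 1511 and 1225. The 5p arms were above the 3p arms in 3 of 3 libraries, with a log2 ratio of 0.95 ± 0.41. The 5p counts of miR-30d, 1620, 3364 and 2119, exceeded the summed 3p counts by themselves, so miR-30d alone fixed this direction.

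Among hairpin entries the sum of miR-30a and miR-30e gave a smaller excess of the 3p arms, 1.65-fold as a geometric mean. The log2 ratio was -0.72 ± 0.28, with the same direction in 3 of 3 libraries. The hairpin entries of miR-30e alone were also mainly 3p, with 101, 258 and 107 counts on the 5p and 833, 1135 and 678 on the 3p arm. For miR-30a the direction differed between entry types, and the hairpin log2 ratio of 5p to 3p was 0.24 ± 0.30, above 0 in 2 of 3 libraries.

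**Figure D4:**
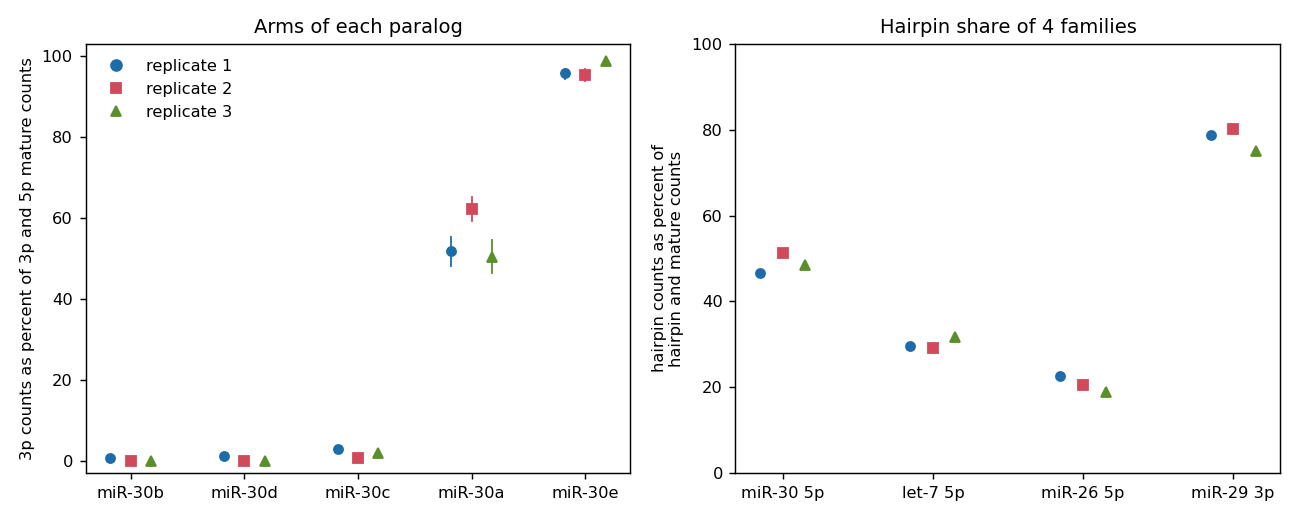
Left, 3p counts as a percent of the mature 5p and 3p counts of each paralog, with exact 95% binomial intervals for each library; right, hairpin counts as a percent of the hairpin and mature counts of the arm named below each family, with a point for each library. The 3p share is above 95% for miR-30e, between 50.4% and 62.3% for miR-30a and at most 2.89% for the others, and the hairpin share of miR-30, 48.7% on average, lies above let-7 and miR-26 and below miR-29.

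The 3p arm is where the miR-30c precursors can be told apart. miR-30c-1-3p, from the Nfyc intron, had 1, 16 and 30 mature counts in replicates 1, 2 and 3, and miR-30c-2-3p had 59, 3 and 6. As hairpin the order was opposite in each library, with 57, 3 and 3 counts for miR-30c-1-3p and 17, 40 and 122 for miR-30c-2-3p. The mature log2 ratio of miR-30c-1-3p to miR-30c-2-3p was -0.38 ± 4.76 (SD, n = 3; exact sign-flip permutation test, two-sided, p = 1), and without replicate 1 it was 2.37. With both entries summed, miR-30c-1-3p had 58, 19 and 33 counts and miR-30c-2-3p 76, 43 and 128. The summed log2 ratio was -1.17 ± 0.78, with miR-30c-2-3p higher in 3 of 3 libraries (exact permutation p = 0.25). Which miR-30c precursor contributed more could not be read from the mature entries alone, since their order changed between libraries and was opposite to that of the hairpin entries in each. The cause of these changes was not tested.

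miR-30 was set beside 3 other families of paralogs with a shared seed. In every library its 3p share lay above their share of the other arm, mostly through miR-30a and miR-30e. Its hairpin share lay between theirs. The families were let-7 with miR-98 and miR-26, for which the 5p arm was used, and miR-29, for which the 3p arm was used. The 3p arm held 17.4%, 12.0% and 14.6% of the mature miR-30 counts in replicates 1, 2 and 3, a mean of 14.7% ± 2.70 (SD, n = 3). The other arm held 0.228% ± 0.0262 of the let-7, 0.0714% ± 0.0283 of the miR-26 and 2.03% ± 1.91 of the miR-29 mature counts. The difference of miR-30 was 14.5 ± 2.72 percentage points to let-7, 14.6 ± 2.69 to miR-26 and 12.7 ± 1.12 to miR-29, above 0 in 3 of 3 libraries for each. Nearly all of these 3p counts came from miR-30a-3p and miR-30e-3p, with 1405 of 1504, 1510 of 1530 and 1224 of 1261 in replicates 1, 2 and 3. For miR-30b, miR-30c and miR-30d together the 3p share was only 1.45%, 0.186% and 0.523%. This was above let-7 in 2 of 3 libraries, above miR-26 in 3 of 3 and below miR-29 in 3 of 3, by 0.493 ± 0.682, 0.650 ± 0.641 and -1.31 ± 1.26 percentage points.

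The hairpin share of the 5p miR-30 members was 46.5%, 51.3% and 48.4%, a mean of 48.7% ± 2.37 (SD, n = 3). It was higher than that of let-7 by 18.6 ± 2.95 percentage points and that of miR-26 by 28.1 ± 3.54 in 3 of 3 libraries. It was lower than that of miR-29 in 3 of 3 libraries, by 29.2 ± 2.78 percentage points (difference of miR-30 minus miR-29, -29.2). Each of these 6 differences gave p = 0.25 in the exact sign-flip permutation test, two-sided, and 0.25 after adjustment over the 3 families. The miR-29 values rest on 152 to 242 mature counts per library, against 7123 to 11174 for miR-30.

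miR-384-5p was the only other mature mouse miRNA in the RefSeq table with the seed GUAAACA, and it was barely counted. Its sequence is shown because it matches miR-30a-5p over the first 8 bases, which include the seed.
miR-384-5p, chrX:105344332-105344354, minus strand: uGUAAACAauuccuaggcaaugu
It differed from miR-30a-5p at 10 of 22 positions, the first of them base 9, and had 1, 1 and 2 mature counts in replicates 1, 2 and 3 and none as hairpin. miR-30f, annotated on the opposite strand of Mir30e, has its bases 2 to 8 shifted along the same motif and had 0 counts in all libraries. Other miRNAs of the table with this seed thus added at most 2 mature counts to those of the miR-30 5p members in any library.

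The spread of the members between libraries was also described. For the 7 member mature entries that had 10 or more counts in each library, the ratio of the highest to the lowest CPM had a median of 1.50, against 1.72 over all 272 such mature miRNAs. The factor ranged from 1.34 for miR-30c-5p to 4.16 for miR-30e-5p, whose 12 to 45 counts were the lowest of the 7. The members were not matched to the 272 by count, and counting error weighs more in this ratio at low counts. The medians therefore do not show that the family was steadier than other miRNAs. The summed 5p members had 8178, 11109 and 7605 CPM in replicates 1, 2 and 3. Among 142 other mature miRNAs with 100 or more counts in each library, the log2 CPM profiles closest to this sum over the 3 libraries, after centring each on its mean, were those of miR-214-3p, miR-503-3p and miR-542-5p. Their root-mean-square distances were 0.02, 0.03 and 0.03 on the log2 scale, against a median of 0.32 over the 142. miR-214-3p, for example, had 971, 1276 and 874 CPM. With 3 libraries that share a condition, this likeness describes only how the levels varied between pools.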

How the data were processed

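EV small RNA of mouse testis was sequenced on the BGISEQ-500 platform. The authors filtered reads by quality and used Bowtie2 and cmsearch for mapping, and the submitters' notes name mm10. Reads were assigned to classes by an order of databases in which miRBase comes first. Versions and the mismatches allowed are not given in the sources used here. The deposited values are raw read counts per small RNA and per class. The deposited percent of each class was not used, nor was a column labelled as unique molecules, which holds counts scaled to 1000000 clean reads. PCR copies were not told apart, so intervals and the 3-count limit cover counting error only.

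Counts were scaled to 1000000 mature or hairpin counts of each library, without a filter on low counts, and given as mean ± SD over libraries. Shares have exact binomial (Clopper-Pearson) 95% intervals. Ratios within libraries were tested with the exact paired sign-flip permutation test. Fold values over the libraries were taken from the mean log2 ratio and are geometric means. For miR-30c, the 3p arms of both precursors were summed. The rule for mature or hairpin direction calls was tried on simulated counts, with each identifier's mature share equal in all 3 libraries. Such counts lack the variation between libraries, so the trial does not measure how reliable the calls are. The members and lists were chosen with earlier results of these data known. The names given in the text are every member, every miRNA with the same seed, the Rfam precursor family of mir-30, and the 3 mature miRNAs with the closest profile. miR-202-5p was added after its values were seen. Alternatives changed the denominator, entry types, scaling, pseudocount, averaging and filter, and left out each replicate in turn. Sequences came from RefSeq for GRCm38.p6 and genes from GENCODE vM21 (GRCm38). Scripts ran in Python 3.11.15 with SciPy 1.17.1, numpy 2.4.6 and pandas 2.3.3, and figures were drawn with matplotlib 3.10.9.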

Additional observations from a re-analysis of the deposited data

Results flagged for a closer look

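Besides the named members, the catalogue holds reads assigned to the Rfam family of the mir-30 precursor, an entry type that the comparisons did not use. It was singled out because it had counts far above the 3 counts that an absence allows, and there was no control library. The family had 8073, 11526 and 8472 counts in replicates 1, 2 and 3, and ranked 4th of 259 precursor families. This was 6.87%, 7.32% and 5.70% of the precursor counts. The precursor counts were 0.936, 0.907 and 0.984 times the mature counts of all 11 members, a mean ratio of 0.942 ± 0.0387 (SD, n = 3). The entry does not say which paralog or arm a read came from. These reads are therefore absent from the paralog and arm comparisons above, and how they would change those shares was not tested. With mature, hairpin and precursor entries added, the family held 0.111% ± 0.0307 of the clean reads.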

How the results depend on the processing

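Of the 265 alternative values computed for 43 results, 234 kept their direction or stayed within the spread between libraries, 17 moved and 14 reversed. Part of this count was fixed in advance. Leaving out 1 of 3 libraries cannot move a mean beyond the SD. Nor can this, or pooling, reverse a ratio with the same sign in all 3 libraries. The 5p share of 0.896% moved to 0.515% of all miRNA entries and 0.0323% of clean reads, larger totals by construction, and to 1.11% with mature and hairpin entries summed; leaving out each replicate gave 0.789% to 0.964%. With hairpin entries only, the log2 ratio of miR-30a-5p to miR-30b-5p reversed to 0.34, that of miR-30b-5p to miR-30c-5p to -2.32 and to miR-30d-5p to -2.34. With mature and hairpin entries summed, the last 2 were -0.34 and -0.38, and the 5p to 3p ratio of miR-30a was 0.052. The log2 ratio of miR-30c-5p to miR-30d-5p ranged from -0.27 to 0.069 with each replicate left out, reversing without replicate 2. That of mature to hairpin miR-30e-3p reversed to -0.66 with each entry scaled to its own type, and ranged from -0.068 (without replicate 3) to 0.35. The mature to hairpin ratio of miR-30c-1-3p ranged from -1.71 to 2.87 and the ratio of miR-30c-1-3p to miR-30c-2-3p from -1.78 to 2.37, the upper value in both without replicate 1. Leaving out a replicate moved the 5p to 3p log2 ratio of miR-30d, 9.73, to between 8.73 and 11.38. With 1 count added, that of miR-30b was 10.33 ± 2.73. With miR-30a, miR-30d and miR-30e summed, the 5p to 3p log2 ratio was 0.95, counted as a reversal for miR-30a and for miR-30e. This direction was fixed by the 5p counts of miR-30d, which alone exceeded the summed 3p counts in every library. With miR-30b, miR-30c and miR-30d alone, the difference in 3p share to miR-29 reversed to -1.31 percentage points, and those to let-7 and miR-26 fell to 0.493 and 0.650. These sums, and that of miR-30a and miR-30e, were chosen after the data were examined. Member levels moved beyond their SD only where the denominator was clean reads (8 of 11 members) or all miRNA entries (6 of 11). Leaving out a library could not move them that far. Low 3p members, whose SD was near or above their mean, also changed over 1.5-fold with 1 library left out: without replicate 1, miR-30c-2-3p went from 25.6 to 4.60 CPM, miR-30d-3p from 7.95 to 1.01 and miR-30b-3p from 7.65 to 0, and without replicate 3, miR-30c-1-3p went to 8.53 CPM. The cause of the reversals was not tested. Ratios were paired within libraries, and no block by replicate number applies with a single group. Depth limits the 3p members of miR-30b, miR-30c and miR-30d, which had at most 59 mature counts.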
